A study of Mus musculus with 4 samples.

Results

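The Pax genes encode transcription factors that bind DNA through the paired domain. The 6 genes described here are Pax2, Pax5, Pax8, Pax3, Pax7 and Pax6, of 19938 genes with a named probe set on the array. They were taken by symbol, and each was read by 1 probe set annotated to that gene alone. RNA came from 4 brain regions of ICR mice, an outbred stock, at embryonic day 17.5, namely the superior colliculus, the cerebellum, the pontine nucleus (a relay to the cerebellum) and the olfactory bulb, called the colliculus and the bulb from here on. The labels give neither a genotype other than this background nor a treatment for any of them. For the pontine nucleus the tissue label gives that name but the sample title says pons, so the extent of the tissue taken is not known. Tissue of 13 mice was pooled for the cerebellum, of 14 for the olfactory bulb, of 15 for the pontine nucleus and of 16 for the superior colliculus, and each pool was hybridised to 1 Affymetrix array. With 1 array a region nothing could be tested, and regional differences cannot be told apart from differences between single pooled preparations.

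Pax proteins fall into subgroups. Pax2, Pax5 and Pax8 carry an octapeptide motif and only a partial homeodomain beside the paired domain. Pax3 and Pax7 carry the octapeptide and a complete homeodomain, and Pax6 has a complete homeodomain but no octapeptide. In the embryonic brain Pax2 and Pax5 help to set up the midbrain-hindbrain boundary, Pax3 and Pax7 mark dorsal neural tissue, and Pax6 acts in the rhombic lip, the cortex and the bulb. Later, Pax2 marks precursors of cerebellar inhibitory interneurons, and Pax6 is found in granule cells of the cerebellum and in pontine neurons.

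RefSeq promoter windows, each 250 bases before to 50 after a listed start, were given for 5 of the 6 genes, 8 windows in all on GRCm38.p6. The 250 bases before the start are shown for the genes called in 1 region by the size rule below, Pax2, Pax7 and Pax6. No window for Pax3, which had the widest range of levels, is shown. Where a gene has several listed starts, the window with the match described here is shown. Capitals mark an E-box (CAGCTG, a site class of bHLH factors) for Pax2 and a GC box (CCGCCC) for Pax7. For Pax6 they mark a cyclic AMP response element (TGACGTCA) followed by a CCAAT box. Not every match is marked: the Pax2 window also holds a GC box on the other strand, left in lower case.
Pax2 chr19:44755502-44755751 (+ strand): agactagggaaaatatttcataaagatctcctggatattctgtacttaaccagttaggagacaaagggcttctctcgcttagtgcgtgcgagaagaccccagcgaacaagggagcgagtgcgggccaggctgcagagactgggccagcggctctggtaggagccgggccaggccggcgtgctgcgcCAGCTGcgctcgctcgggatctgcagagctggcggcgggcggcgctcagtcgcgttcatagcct
Pax7 chr4:139832969-139833218 (- strand): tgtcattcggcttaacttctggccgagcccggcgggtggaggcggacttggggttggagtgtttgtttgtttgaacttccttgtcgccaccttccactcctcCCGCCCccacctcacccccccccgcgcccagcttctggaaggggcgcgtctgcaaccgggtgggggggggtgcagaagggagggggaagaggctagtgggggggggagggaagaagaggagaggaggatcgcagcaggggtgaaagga
Pax6 chr2:105668646-105668895 (+ strand): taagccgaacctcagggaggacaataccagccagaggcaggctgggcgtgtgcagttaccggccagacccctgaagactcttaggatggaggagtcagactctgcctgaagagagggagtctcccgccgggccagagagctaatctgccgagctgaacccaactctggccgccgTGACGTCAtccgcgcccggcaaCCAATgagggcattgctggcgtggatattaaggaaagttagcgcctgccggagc
Both strands were searched, and none of the matches in capitals overlap. The cyclic AMP response element was in 1 of the 8 Pax windows and in 1.79% of all 32851 windows. The E-box was in 1 of the 8 windows against 16.3% of all, the GC box in 5 against 35.7%, and the CCAAT box in 2 against 37.4%. TATAAA was in 0 of the 8 windows against 13.6% of all, and the paired-class homeodomain palindromes with 2 and 3 bases between their cores were in 0 of the 8 against 0.39% and 0.487%. The number of CG dinucleotides was between 7 and 30 per Pax window, against a median of 7 over all windows. These are matches of letters in fixed windows, and the array does not say which start was used in which region.

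Levels are given as log2 signal, so that a difference of 1 is 2-fold. The array medians lay between 8.07 and 8.13. Comparisons took in the 10908 genes whose top level was over 8.56, the median of all gene levels. A call of higher needed a gap of 1 log2 unit or more over every other array, and a call of lower the same gap under every other array. Background was read from 207 genes of vomeronasal receptors and beta defensins, whose levels had a 95th percentile of 7.32. The absolute difference between any 2 arrays in that set had a 95th percentile of 0.41, and smaller steps between neighbouring regions are not read as an order. That set is dim, so it gives no error for brighter genes. As a check of the labels, 5 of 6 markers compared were higher in the cerebellum, beside 0.605% of all compared genes. For its own list each of the other regions had 6 of 6, beside 0.972% (bulb), 0.798% (pontine nucleus) and 0.715% (colliculus). These lists were chosen with earlier results of these data known, so the counts are not an independent check.

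Of the 6 Pax genes, 4 were compared (Pax2, Pax3, Pax7 and Pax6), while Pax5 and Pax8 stayed below the level floor on all 4 arrays. Pax2 was called higher in the cerebellum, where 0.605% of compared genes were. Pax7 was called higher in the colliculus, where 0.715% were, and Pax6 was called lower there, which held for 0.165%. Pax3 was high in the cerebellum and the colliculus together and so was called in neither. The remaining family members with a probe set, Pax1, Pax9 and Pax4, lay between 7.24 and 8.43 on all arrays, and none was compared. Their levels spanned only 0.17 to 0.40 over the 4 arrays.

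**Figure D1:**
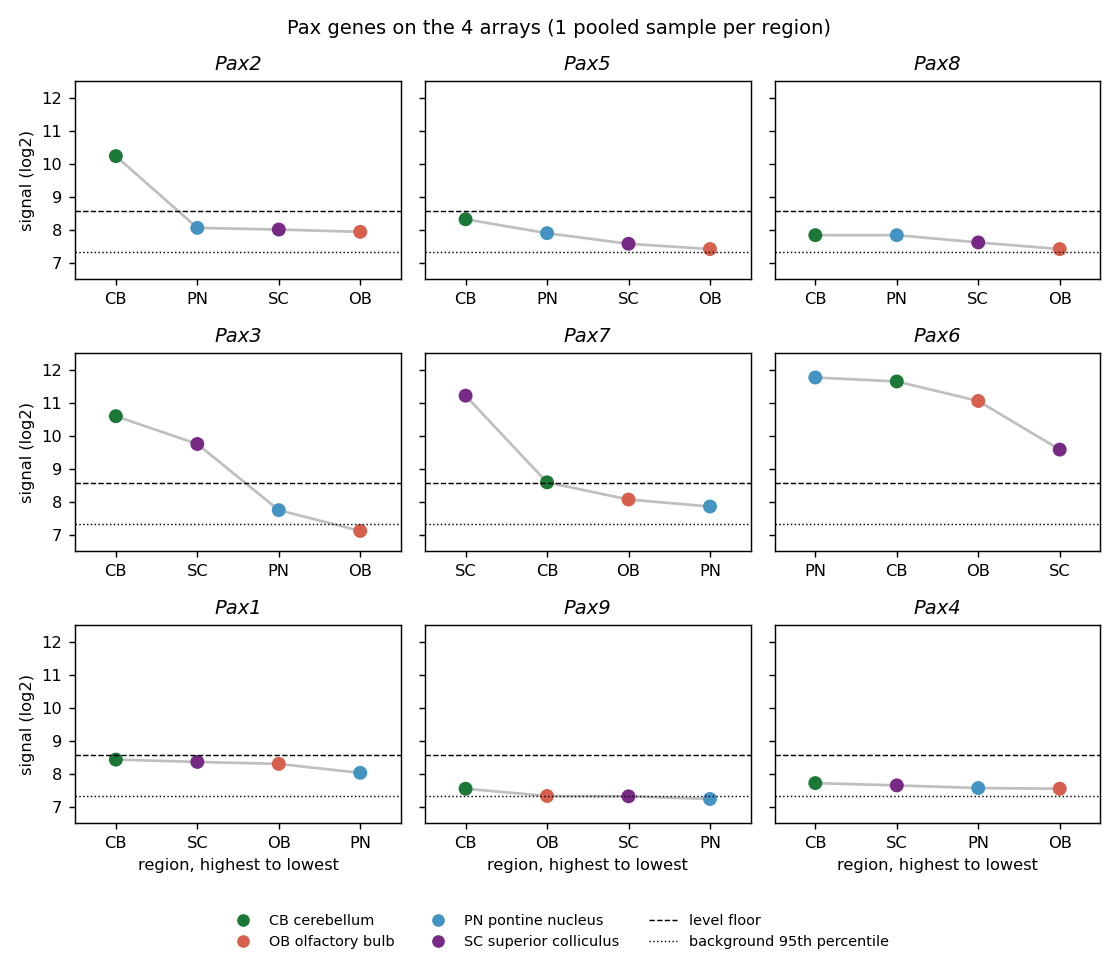
Log2 signal (y axis) of the 6 described Pax genes and of Pax1, Pax9 and Pax4 on the 4 arrays, 1 point per region (x axis, sorted from highest to lowest within each gene). CB is the cerebellum, OB the olfactory bulb, PN the pontine nucleus and SC the superior colliculus. The dashed line is the level floor of 8.56 and the dotted line the background 95th percentile of 7.32. Pax2, Pax3, Pax7 and Pax6 have at least 1 point above the floor, and the other 5 genes have none.

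Pax2 (probe set 10463389) read 10.23 in the cerebellum, against 8.06 in the pontine nucleus, 8.01 in the colliculus and 7.94 in the bulb. Only the cerebellum stood above the floor, and the other regions were not separable, with steps of 0.05 and 0.07. The cerebellar level was 2.17 log2 units, or 4.50-fold, above the next region, which was the tenth widest gap of its kind (rank 10 of 10908). Array signals carry a background, so a fold against a dim region can be compressed. In these bulk tissues a difference in the number of cells of a type and a difference in RNA per cell cannot be told apart.

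Its closest paralogs, Pax5 and Pax8, did not reach the floor in any region. Pax5 (probe set 10512669), which acts with Pax2 at the boundary and is also the identity factor of B lymphocytes, read 8.32 in the cerebellum, 7.90 in the pontine nucleus, 7.58 in the colliculus and 7.42 in the bulb. The cerebellum was again at the top, but the step of 0.42 to the next region barely exceeded the 0.41 of the background set, and later steps did not. Pax8 (probe set 10480477), a thyroid and kidney factor also found in hindbrain interneurons, read 7.84 in both the cerebellum and the pontine nucleus, 7.62 in the colliculus and 7.42 in the bulb. No step of Pax8 exceeded the background step. All 4 of its levels lay above the background 95th percentile, but so did all 4 of Pax1 and of Pax4. In the cerebellum 14600 of 19938 named genes lay above that line, so it is a weak mark of expression. The bulb was lowest for Pax2, Pax5 and Pax8, by steps of 0.07 to 0.20 that are within the background step. As Pax5 marks B lymphocytes, their genes were read beside it: of 9 measured, none reached the floor. They lay between 5.68 and 7.86. In the cerebellum all 9 exceeded their mean over the other arrays, beside 10620 of 19938 named genes, by a median of 0.18. The summed signal (log2) of the 9 B lymphocyte genes was 10.43 in the cerebellum. It was 10.26 in the colliculus, 10.24 in the bulb and 10.19 in the pontine nucleus. Their part in the Pax5 level was not tested.

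Pax3 (probe set 10355916), a factor of the dorsal neural tube and neural crest, read 10.59 in the cerebellum and 9.75 in the colliculus, against 7.75 in the pontine nucleus and 7.12 in the bulb. High and low regions were 2.0 log2 units apart, and the bulb lay below the background 95th percentile. All 3 steps in its order exceeded the background step, including the 0.84 between the cerebellum and the colliculus. Against the bulb the cerebellum was at least 3.47 higher (11.1-fold) and the colliculus at least 2.63 higher, both read as lower bounds because the bulb was that close to background. The colliculus was 2.0 above the pontine nucleus.

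Pax7 (probe set 10517715), a factor of the dorsal midbrain and of muscle satellite cells, read 11.21 in the colliculus, against 8.59 in the cerebellum, 8.07 in the bulb and 7.86 in the pontine nucleus. The colliculus was 2.62 above the cerebellum, or 6.15-fold, the eighth widest gap in that region (rank 8 of 10908). The cerebellum just exceeded the floor and was 0.52 above the bulb, and the bulb and the pontine nucleus were not separable (step 0.21). The paralogs Pax3 and Pax7 ran opposite ways between the cerebellum and the colliculus. The cerebellum minus the colliculus was 0.84 for Pax3 and -2.62 for Pax7, while both were low in the bulb and the pontine nucleus. Pax3 and Pax7 also mark cells outside the brain, and those cells' markers were read beside them. The 7 measured Schwann cell and melanoblast genes had their highest summed signal (log2) in the bulb, at 11.05, against 10.36 (cerebellum), 10.29 (pontine nucleus) and 10.31 (colliculus). The 7 skeletal muscle genes gave 10.37 in the colliculus, against 10.42 in the cerebellum, 10.45 in the bulb and 10.20 in the pontine nucleus, and Myf5 and Myod1 read 6.86 and 7.70 in the colliculus. Genes of the neighbouring thalamus and pretectum were mostly high in the colliculus. There 5 of 6 measured exceeded their mean over the other arrays, beside 9593 of 19938 named genes, and their median was 1.04. The median was -0.34 in the cerebellum, -0.49 in the bulb and -1.16 in the pontine nucleus. The summed signal of 6 measured genes was 13.96 in the colliculus, against 12.27 in the cerebellum, 12.42 in the bulb and 12.10 in the pontine nucleus. Of 5 compared, Tcf7l2 (12.88 in the colliculus) and Lhx9 (11.68) were higher there, beside 0.715% of compared genes. Prox1 was higher in the pontine nucleus, beside 0.798%. Rora and Gbx2 peaked in the cerebellum, and Lhx2 was not separable between the bulb (11.59) and the colliculus (11.31). The part of these cells in the Pax7 level was not tested.

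Pax6 (probe set 10474312) was above the floor in all 4 regions. It read 9.58 in the colliculus, against 11.76 in the pontine nucleus, 11.64 in the cerebellum and 11.05 in the bulb. The pontine nucleus and the cerebellum were not separable (step 0.12), while the bulb lay 0.59 below the cerebellum. The colliculus lay 1.47 below the bulb, which was 2.77-fold and the fifth widest gap of its kind (rank 5 of 10908). The pontine nucleus was 2.18 above the colliculus (4.53-fold) and the cerebellum 2.06 above it (4.17-fold).

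Over the 6 pairs of regions the 4 compared genes gave 24 differences, of which 13 reached 1 log2 unit. In the cerebellum over the bulb, which 2.06% of compared genes passed, Pax2 and Pax3 passed. The same genes passed in the cerebellum over the pontine nucleus, beside 4.49% of compared genes. In the cerebellum over the colliculus Pax2 (2.22) and Pax6 passed, beside 3.08%. In the colliculus over the cerebellum Pax7 passed, beside 2.63%. Pax3 and Pax7 passed in the colliculus over the bulb, beside 2.73%, and over the pontine nucleus, beside 4.12%. Pax6 alone passed in the bulb over the colliculus, beside 2.94%, and in the pontine nucleus over it, beside 1.72%. No Pax gene passed in either direction between the bulb and the pontine nucleus, where 5.2% of compared genes were higher in the bulb and 2.57% in the pontine nucleus. None was higher by the rule in the bulb over the cerebellum, which 2.46% of compared genes were, or in the pontine nucleus over the cerebellum, which 1.88% were. The largest Pax difference between the bulb and the pontine nucleus was the 0.71 by which Pax6 was higher in the pontine nucleus.

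**Figure D2:**
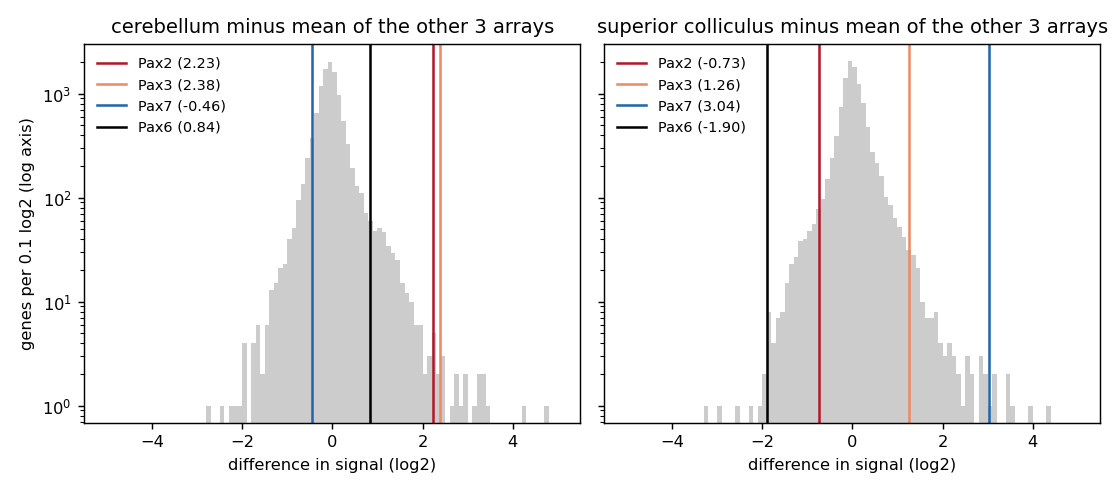
Histograms of the difference (log2) of the cerebellum (left) and of the superior colliculus (right) from the mean of the other 3 arrays, over 10908 compared genes in steps of 0.1, with a log count axis. Coloured lines are Pax2, Pax3, Pax7 and Pax6. In the cerebellum Pax2 (2.23) and Pax3 (2.38) lie in the upper tail, and in the superior colliculus Pax7 (3.04) lies in the upper and Pax6 (-1.90) in the lower tail.

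For each compared Pax gene the 3 genes of most similar pattern were taken by the root mean square distance between levels centred on their 4-array mean, over 4 arrays. Nearest to Pax2 were the growth factor gene Fgf3 (distance 0.19), Skor2, a corepressor gene of Purkinje cells (0.22), and the homeobox gene Tlx3 (0.24). Fgf3 read 9.19 in the cerebellum against 7.38 on all 3 other arrays. Nearest to Pax3 were the helix-loop-helix genes Ebf3 (0.35) and Ebf2 (0.40) and the long noncoding RNA gene Lncenc1 (0.46), none as close as the neighbours of the other members. Ebf2 read 11.08 in the cerebellum and 9.80 in the colliculus, against 8.0 in the bulb and 7.58 in the pontine nucleus. Nearest to Pax7 were the transcription factor genes Pou4f1 (0.17), Sox14 (0.18) and Zfhx3 (0.20), and Zfhx3 read 11.84 in the colliculus against 9.73 in the cerebellum. Nearest to Pax6 were Plp2 (0.16), Tcf4, the gene of a general bHLH partner (0.21), and the neuronal bHLH gene Neurod2 (0.25). Tcf4 read 10.97 in the colliculus, against 12.85 in the pontine nucleus, 12.44 in the cerebellum and 12.08 in the bulb. With 4 arrays many genes can lie close, so the distances are descriptions.

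**Figure D3:**
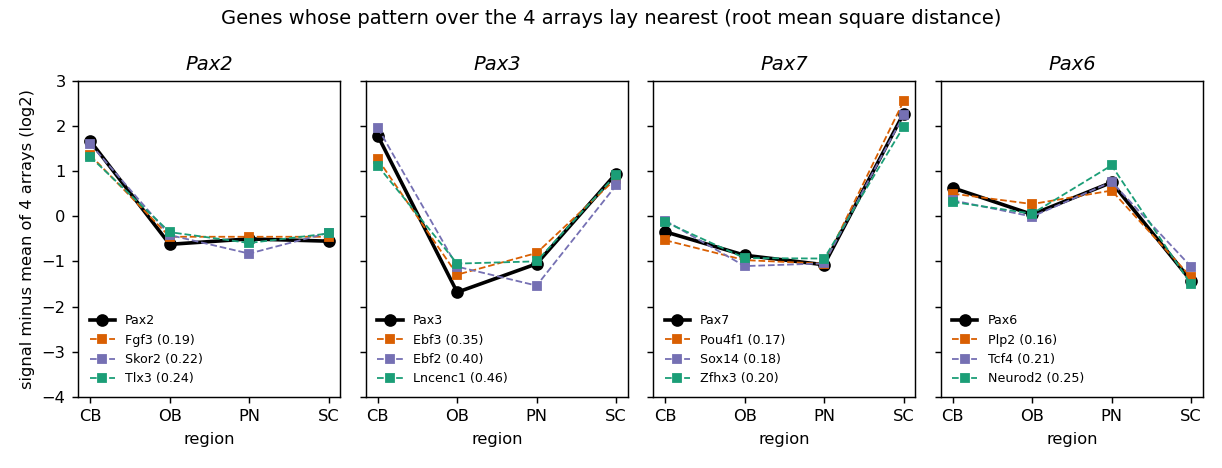
Log2 signal minus the gene's mean over the 4 arrays (y axis) in each region (x axis, CB cerebellum, OB olfactory bulb, PN pontine nucleus, SC superior colliculus) for 4 Pax genes (black) and the 3 genes nearest to each (coloured, with the distance in the legend). The Pax2 group peaks in the cerebellum, the Pax7 group in the superior colliculus, the Pax3 group in both, and the Pax6 group is lowest in the superior colliculus.

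Levels of the neighbouring genes on the chromosome were read beside those of the Pax genes. The protein-coding genes next to Pax2 in the RefSeq table, Hif1an and Slf2, each spanned 0.48 over the 4 arrays, against 2.29 for Pax2. Elp4, whose span overlaps that of Pax6, read 10.33 in the colliculus against 10.83 in the pontine nucleus, and its range was 0.50 against 2.18 for Pax6. Beside Pax7, Tas1r2 and Klhdc7a ranged over 0.21 and 0.40, against 3.35 for Pax7. Both stayed below the floor, at no more than 7.60 and 7.20, so their small ranges are those of dim genes. Melk, a kinase gene next to Pax5, read 8.90 in the cerebellum and 8.76 in the bulb, against 7.61 in the pontine nucleus and 7.54 in the colliculus. Its bulb level was near its highest, whereas the bulb was the lowest region for Pax5. Epha4, an ephrin receptor gene next to Pax3, ranged over 1.92. It read 11.14 in the cerebellum, 10.39 in the pontine nucleus and 10.81 in the colliculus, against 9.22 in the bulb, so the pontine nucleus was not low as it was for Pax3. Sgpp2, a sphingosine phosphatase gene on the other side of Pax3, stayed below the floor and read 8.36 in the cerebellum, against 7.81 in the colliculus, 7.71 in the bulb and 7.31 in the pontine nucleus.

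The partners of Pax2, Pax5 and Pax8 at the midbrain-hindbrain boundary were uneven. Of 14 measured genes 11 were compared, and 3 were called higher in the cerebellum, beside 0.605% of compared genes. They were the homeobox genes En2 (4.03 above the next array) and En1 (1.34), and the gene Cnpy1 (3.19), whose product modulates FGF signalling in fish. Otx2, the homeobox gene of the midbrain side, was instead higher in the colliculus (1.23), beside 0.715%. Otx2 is also among the markers that checked the colliculus label, as is Gata3 below. The other 10 had gaps of 0.00 to 0.48 above the next array, among them Fgf8 at 8.94 in the cerebellum against 8.80 in the colliculus. Over all 14 the cerebellum exceeded the mean of the other arrays by a median of 0.38, against 0.02 over all named genes. Reported targets of Pax2, Pax5 and Pax8 gave 12 measured and 5 compared genes. Of these, En2 was higher in the cerebellum, Gata3 and Lef1 in the colliculus, and Ret, by 1.02, in the pontine nucleus. The shares of all compared genes were 0.605%, 0.715% and 0.798%, in that order. Over the 12 measured targets the cerebellar median was 0.13.

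Genes of the cerebellar inhibitory lineage, in which Pax2 marks interneuron precursors, were split between the cerebellum and the colliculus. Of 12 measured, 11 exceeded their mean over the other arrays in the cerebellum (median 0.88 over the 12) and 8 did in the colliculus (median 0.32). Of all 19938 named genes, 10620 did in the cerebellum and 9593 in the colliculus. The summed signal (log2) of the 12 was 13.79 in the cerebellum, against 14.15 in the colliculus, 12.94 in the bulb and 12.06 in the pontine nucleus. Of 10 compared, 3 were called higher in the cerebellum, beside 0.605% of compared genes: Kirrel2, an adhesion gene of these precursors, by 1.16, the AP-2 gene Tfap2a by 1.14 and the LIM homeobox gene Lhx1 by 1.08. Tfap2b was higher in the colliculus, by 1.58, beside 0.715% of compared genes. Gad2 was also highest there, by 0.49, while Gad1 was not separable between the colliculus and the bulb (step 0.06). Ptf1a, the proneural factor of the lineage, read 7.38 in the cerebellum against at most 6.86 elsewhere and was below the floor. In the pontine nucleus 4 of the 10 were called lower, beside 0.981% of all compared genes: Gad1, Gad2 and Slc32a1, which make and load GABA, and Tfap2a.

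Genes of the rhombic lip lineage, the source of granule cells and pontine neurons and a site of Pax6, did not share 1 pattern. All 14 measured were compared. Atoh1 was higher in the cerebellum (3.0 above the next array), Barhl1 in the pontine nucleus (1.25), Eomes in the bulb (1.70) and Lhx9 in the colliculus (2.32), and another 2 genes passed, 1 each in the pontine nucleus and the colliculus. The shares of compared genes called higher were 0.605% in the cerebellum, 0.798% in the pontine nucleus, 0.972% in the bulb and 0.715% in the colliculus. Atoh1, Eomes, Barhl1 and the other gene of the pontine nucleus, Robo3, are also among the markers that checked the labels, as is Sp8 below. Median differences between a region and the mean of the others were 0.77 in the cerebellum, 0.35 in the pontine nucleus, -0.63 in the colliculus and -0.68 in the bulb. The Pax6 level in the bulb, 11.05, stood beside the interneuron genes of that region. Of 13 measured olfactory bulb interneuron genes 12 were compared and 8 were higher in the bulb, beside 0.972% of compared genes, led by Dlx1 (5.05), Dlx5 (3.72), Dlx2 (3.51) and Sp8 (3.23). Over all 13 the bulb median was 1.84, against 0.01 over all named genes.

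Reported Pax6 targets did not, by their median, rank the regions as Pax6 did. Like the other target lists, this list does not separate genes that the factor raises from genes that it lowers. The ranks are therefore descriptions, and regulation by Pax6 was not tested. In the pontine nucleus, where Pax6 read 11.76, 5 of 9 compared targets were called lower, beside 0.981% of compared genes. They were Neurod1, a bHLH gene of granule cells (2.33 below the next lowest array), the cadherin gene Cdh4 (1.30), the leucine zipper factor gene Maf (1.22), the Wnt antagonist gene Sfrp2 (1.16) and the Wnt secretion gene Wls (1.02). The median over all 10 was -1.37 there, against -0.04 over all named genes. In the cerebellum, where Pax6 read 11.64, all 10 exceeded their mean over the other arrays, beside 10620 of 19938 named genes. The median there was 0.25. There 0 were called higher, beside 0.605% of compared genes. In the colliculus, where Pax6 was lowest, the median was 0.31 and 0 were called lower, beside 0.165%. With 9 compared, these counts of 0 are near both shares. Eomes was higher in the bulb, beside 0.972%, and Fabp7, a radial glia gene, read 13.93 to 14.03 on all 4 arrays. The target list shares Eomes, Neurod1 and Wls with the rhombic lip list.

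The dorsal midbrain list, the setting of Pax3 and Pax7, was high in the colliculus. Of 15 compared genes 9 were called higher there, beside 0.715% of compared genes, led by Pou4f1 (3.08), Tfap2d (2.86), Lef1 (2.78) and Gata3 (2.74). Of these 9, 6 are also among the markers that checked the colliculus label, so the count largely repeats that check. Of 19 measured, 16 exceeded their mean over the other arrays in the colliculus, beside 9593 of 19938 named genes. The median over the 19 was 0.94. Lhx1 was called higher in the cerebellum. Reported Pax3 and Pax7 targets, known mostly from muscle and neural crest, were not called higher in the colliculus, which is near the share of 0.715%. Of 12 measured genes 6 were compared, 2 (the receptor genes Met by 1.19 and Ret by 1.02) were higher in the pontine nucleus, beside 0.798% of compared genes, and the median was -0.34 in the colliculus. In the cerebellum, where Pax3 was highest, 8 of the 12 exceeded their mean over the other arrays, beside 10620 of 19938 named genes. That count is near the share of all named genes, and the median was 0.18.

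**Figure D4:**
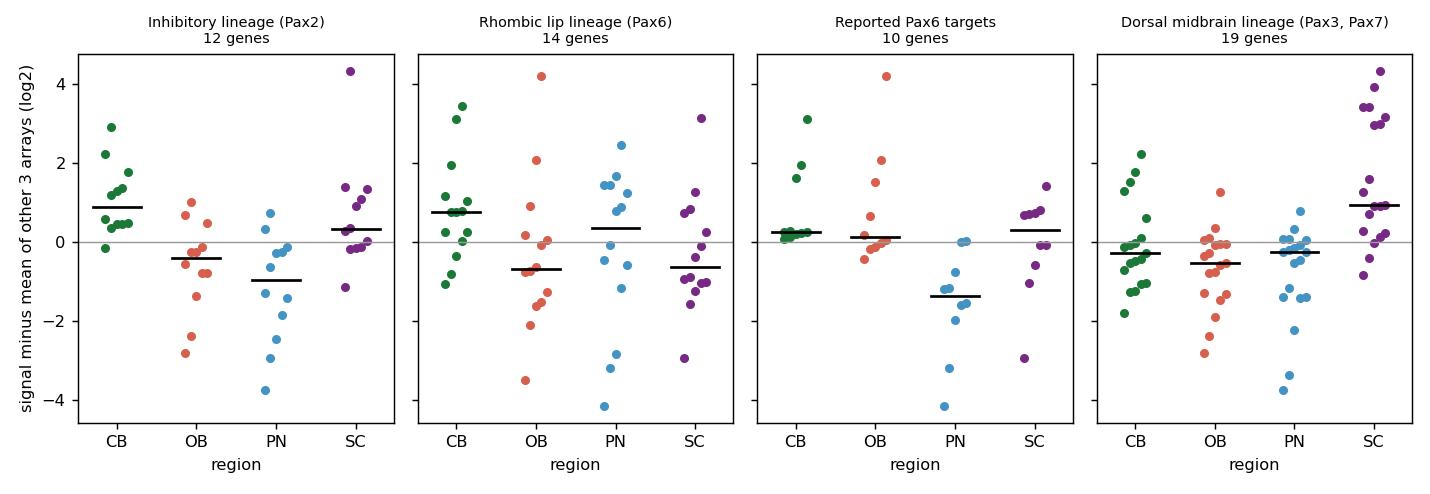
Log2 signal minus the mean of the other 3 arrays (y axis) in each region (x axis, CB cerebellum, OB olfactory bulb, PN pontine nucleus, SC superior colliculus), 1 point per measured gene of 4 lists, with black bars at the medians. The inhibitory lineage median is highest in the cerebellum (0.88), the dorsal midbrain median in the superior colliculus (0.94), and the median of reported Pax6 targets is -1.37 in the pontine nucleus.

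Genes of proteins that partner Pax factors gave 24 measured and 19 compared. In each region 0 were called higher, which is near the 0.605% to 0.972% of all compared genes called in a region. The gaps of the 24 were 0.01 to 0.97. The closest to the threshold were Eya2, a coactivator gene, 0.97 higher in the bulb, and Meis2, a homeobox cofactor gene, 0.77 higher there. Tle4, a Groucho corepressor gene, was called lower in the pontine nucleus, by 1.23, beside 0.981% of compared genes. Dach1, a corepressor gene of the same network as Eya, was called lower in the bulb, by 1.04, beside 0.431%. Meis1, another homeobox cofactor gene, was lowest in the colliculus, as Pax6 was, at 10.17 in the colliculus, against 12.42 in the pontine nucleus, 11.92 in the cerebellum and 10.88 in the bulb. Eya1 was also lowest in the colliculus, 0.99 below the pontine nucleus. Paxip1 and Paxbp1, which encode proteins named for binding Pax factors, ranged from 9.78 to 9.90 and from 10.09 to 10.60.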

How the data were processed

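Total RNA of 4 pooled tissue samples was measured on 4 Affymetrix arrays, 1 per region, after Trizol and RNeasy extraction and Ambion and Affymetrix whole-transcript labelling, per the labels' protocols. Affymetrix Expression Console was used, per the submitters' processing notes; for its version, summarisation, normalization and build the sources used here give nothing. The authors' deposited table holds 1 log2 signal per probe set and array, a scale inferred from the range of 2.43 to 14.57. Scaling between arrays by the authors can hide a difference in total RNA between regions. Precision is limited by there being 1 array a region.

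Of 35556 probe sets, 21789 had 1 symbol in the 2016 annotation, 1621 several (not used) and 12146 are unnamed here. By Entrez ID 21698 matched RefSeq (GRCm38.p6), changing 0 symbols. The probe set of the highest mean stood for each of 999 genes with several. No test was possible. The size rules are given with the results. All 4 value columns were mapped to samples.

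Named were the Pax genes, the 3 nearest genes of each compared member (predicted genes, RIKEN and clone names, small RNAs and receptors of smell left out), and from each list up to 4 genes past the rule by gap, or up to 2 where none passed; genes called lower, neighbours on the chromosome, motifs and other examples were chosen after values were seen. The members, lists and rules were chosen with earlier results of these data known. List genes without a probe set of 1 symbol are unnamed here. Alternatives were other level floors, quantile normalization, the mean of probe sets, 2 log2 units, the mean of the other arrays, and dim levels raised to background. Python 3.11.15, NumPy 2.4.6, pandas 2.3.3 and Matplotlib 3.10.9 were used.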

Additional observations from a re-analysis of the deposited data

How the results depend on the processing

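The main calls were 2 higher (Pax2 in the cerebellum, Pax7 in the superior colliculus), 1 lower (Pax6 in the superior colliculus) and 13 differences between pairs of regions. The same genes and regions were called with no level floor, with a floor at the 75th percentile or at the background 95th percentile, after quantile normalization, with the mean of probe sets and with levels raised to the background 95th percentile. The floors could not change a call. Every compared Pax gene peaked above the highest floor, 10.03, and Pax5 and Pax8 ranged over only 0.90 and 0.42. Pax2, Pax7 and Pax6 read at least 7.86 on every array, so raising dim levels could not change their calls. With a rule of 2 log2 units 2 were higher, 0 lower and 12 pair differences passed, since the gap of Pax6 was 1.47. Against the mean of the other arrays 5 were higher and 5 lower. This comparator lets a gene be called in several regions: Pax3 became higher in the cerebellum (2.38) and in the superior colliculus (1.26), and Pax6 in the pontine nucleus (1.0). Lower were Pax3 and Pax7 in the olfactory bulb (-2.24 and -1.15) and in the pontine nucleus (-1.40 and -1.43), beside Pax6 in the superior colliculus (-1.90). Each Pax gene has 1 probe set, so the choice among probe sets could not change its level. No paired analysis was possible because each region has 1 array and the labels give no replicate numbers. No array could be left out, as each is a whole region. The gaps of dim genes such as Pax5 and Pax8 are limited by signal near background.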
